A study of Mus musculus with 4 samples.

Results

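Myelin is built from a small set of abundant proteins, and 8 of their genes were followed through single cells of the mouse spinal cord. The genes were Mbp, Mobp, Mag, Mog and Cnp, best known from central myelin, and Pmp22, Prx and Ncmap, best known from the myelin of peripheral nerve. They were taken by symbol from the 32285 genes of the deposited count tables, and all 8 were found, each under 1 identifier. The data came from droplet single-cell sequencing, which reads transcripts near their 3' ends and counts each molecule once by its unique molecular identifier (UMI). There were 4 groups, each with 1 library. Mice of 3 groups were P301S hom: a CD8 KO group aged 30 weeks, a CD8 WT group aged 33 weeks and a CD8 WT group aged 30 weeks. The fourth group was P301S neg and CD8 WT, aged 30 weeks. Here hom and neg stand for homozygous and negative. P301S mice carry a human tau transgene with the P301S mutation and model tauopathy. The promoter of the transgene and the CD8 gene that was altered are not given in the sources used here. In each library the cords of 2 saline-perfused mice were pooled, and myelin was depleted with beads before loading, so the recovery of myelin-bearing cells is set in part by the preparation. With 1 library a group no test between groups was possible. Levels are given as CPM, the UMIs of a gene scaled to the total UMIs of its cell class in a library, and every interval is a 95% interval that covers counting error only. Since a few heavily loaded cells can hold many of a gene's UMIs, these intervals are narrower than the true uncertainty.

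Myelin is a stack of glial membrane wrapped around axons, made by oligodendrocytes in the brain and spinal cord and by Schwann cells in nerve roots and nerves. In both, myelin basic protein (Mbp) draws the cytoplasmic faces of the membrane together, and 2',3'-cyclic nucleotide phosphodiesterase (Cnp) lies in the cytoplasmic channels that remain. Myelin-associated glycoprotein (Mag) sits on the membrane next to the axon. Mog is displayed on the outer surface of central myelin, and Mobp is a small basic protein of its dense line. Pmp22 is a membrane protein of compact peripheral myelin that is also made by many epithelial and connective tissue cells. Prx encodes periaxin, which links the Schwann cell's outer membrane to its cytoskeleton, and Ncmap encodes a protein of the non-compact regions of peripheral myelin. Mbp messenger RNA is carried out into the glial processes and travels with myelin fragments, so it is often met as debris or free RNA in other cells of a dissociated cord.

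The libraries held between 36331214 and 43531426 UMIs, and 20186 of 22644 barcodes were kept. Any pair of libraries shared between 3 and 12 barcodes. Of cells with a sex call, 3089 were male and 4 female in the library labelled CD8 KO, none were male and 3723 female in P301S hom CD8 WT at 30 weeks, and the other libraries held both sexes, so sex and the CD8 label cannot be told apart in their comparison. Cd8a, a gene of the CD8 co-receptor, had 2 UMIs in the library labelled CD8 KO, in its 90 T-like cells (6.73 CPM, 0.815 to 24.3), against 279 CPM in those of P301S hom CD8 WT at 30 weeks. Its endothelial-like cells held 992 Cd8a UMIs (119 CPM), against 0 UMIs in endothelial-like cells of each CD8 WT library. Cd8a thus went with the label in T-like cells and against it in endothelial-like cells, and the cause was not tested. Directions for the library labelled CD8 KO rest on its label. Cell classes were rebuilt by clustering without the 8 genes and named from other markers, so a class such as Schwann-like does not depend on the 8 genes. It does depend on its markers, and Cldn19, Drp2, Egr2, Scn7a and Lgi4, reported below, are markers of the Schwann list. Levels of such markers in a class may follow in part from the clustering and naming.

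Promoter sequences from RefSeq (build GRCm38.p6, 250 bases before to 50 after the annotated start, printed 5' to 3' on the strand of the gene) are shown for 4 of the genes. Mobp was found in oligodendrocyte-like and never in Schwann-like cells, Prx and Ncmap were found in Schwann-like and never in oligodendrocyte-like cells, and Cnp was high in both. Capitals mark AACAAAG or its reverse complement CTTTGTT, letters that SOX-type transcription factors, such as the glial factor Sox10, are known to bind. Of the 32851 promoters in the table, 1922 (5.85%) held the letters at least once on either strand, and 1 held them 4 or more times.
Mobp, chr9:120149492-120149791, plus strand: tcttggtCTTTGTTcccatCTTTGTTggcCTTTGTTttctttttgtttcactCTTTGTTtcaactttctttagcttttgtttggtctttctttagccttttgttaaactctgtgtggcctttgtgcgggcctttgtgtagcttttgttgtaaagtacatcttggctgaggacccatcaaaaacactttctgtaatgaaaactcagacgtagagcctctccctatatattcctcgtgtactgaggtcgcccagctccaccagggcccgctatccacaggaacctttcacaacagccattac
Cnp, chr11:100574689-100574988, plus strand: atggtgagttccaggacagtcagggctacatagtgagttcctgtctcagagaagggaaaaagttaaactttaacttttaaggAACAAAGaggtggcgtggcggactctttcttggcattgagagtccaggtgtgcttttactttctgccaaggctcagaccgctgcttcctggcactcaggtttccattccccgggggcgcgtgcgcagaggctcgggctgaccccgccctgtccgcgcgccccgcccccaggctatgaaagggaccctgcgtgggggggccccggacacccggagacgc
Prx, chr7:27499074-27499373, plus strand: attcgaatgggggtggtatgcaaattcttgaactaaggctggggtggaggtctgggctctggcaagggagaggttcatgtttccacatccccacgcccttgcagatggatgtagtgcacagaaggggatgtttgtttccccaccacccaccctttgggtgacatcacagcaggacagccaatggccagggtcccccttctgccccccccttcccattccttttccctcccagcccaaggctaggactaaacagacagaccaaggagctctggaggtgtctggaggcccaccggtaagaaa
Ncmap, chr4:135398178-135398477, minus strand, the second of 2 annotated starts: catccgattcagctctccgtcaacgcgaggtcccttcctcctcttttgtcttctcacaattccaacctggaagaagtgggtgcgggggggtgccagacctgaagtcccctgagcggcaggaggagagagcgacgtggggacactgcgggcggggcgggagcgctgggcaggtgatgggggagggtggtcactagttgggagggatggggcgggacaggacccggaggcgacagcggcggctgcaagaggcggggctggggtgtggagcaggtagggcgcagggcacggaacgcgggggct
The promoter of Mobp was the 1 with 4 matches, that of Cnp held 1, and those of Prx and Ncmap held none. The windows at the starts of Mag, Mog and Pmp22 also held none. A match is a run of letters and not a measured binding site, and a window without one says nothing of the factor.

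In GENCODE M21 (GRCm38), Mobp (ENSMUSG00000032517) spans 120149707 to 120181484 on the plus strand of chromosome 9 and Mag (ENSMUSG00000036634) spans 30899176 to 30914873 on the minus strand of chromosome 7. Mog (ENSMUSG00000076439) spans 37010743 to 37023398 on the minus strand of chromosome 17. Cnp (ENSMUSG00000006782) spans 100574904 to 100591729 on the plus strand of chromosome 11 and overlaps Dnajc7 on the opposite strand, and Pmp22 (ENSMUSG00000018217) spans 63128982 to 63159547 on the plus strand of the same chromosome. Prx (ENSMUSG00000053198) spans 27499324 to 27520214 on the plus strand of chromosome 7 and overlaps an antisense gene, Gm15541. Ncmap (ENSMUSG00000043924) spans 135369576 to 135398227 on the minus strand of chromosome 4, and the identifier of Mbp is ENSMUSG00000041607. Whether the upstream counting separated the strands is not given in the sources used here, so UMIs of Cnp and Prx could in part belong to these partners. Mobp overlaps Gm38642 on its own strand, an overlap that counting by strand would not separate.

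The 8 genes fell into 3 patterns over the cell classes. Mog and Ncmap were held almost wholly by 1 glial class: 251 of 269 Mog UMIs in kept cells (93.3%) lay in oligodendrocyte-like cells, and 224 of 269 Ncmap UMIs (83.3%) lay in Schwann-like cells. Prx and Mobp were divided, with 143 of 248 Prx UMIs (57.7%) in Schwann-like cells and 276 of 618 Mobp UMIs (44.7%) in oligodendrocyte-like cells. For the other 4 genes the class with the most UMIs was macrophage-like, which includes microglia and made up between 23.8% and 48.2% of kept cells. It held 3198 of 8387 Mbp UMIs (38.1%), 961 of 1915 Mag UMIs (50.2%), 2151 of 8158 Cnp UMIs (26.4%) and 19970 of 33419 Pmp22 UMIs (59.8%). As CPM, however, Mbp, Mag, Cnp and Pmp22 were all lower in macrophage-like than in oligodendrocyte-like or Schwann-like cells.

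**Figure D1:**
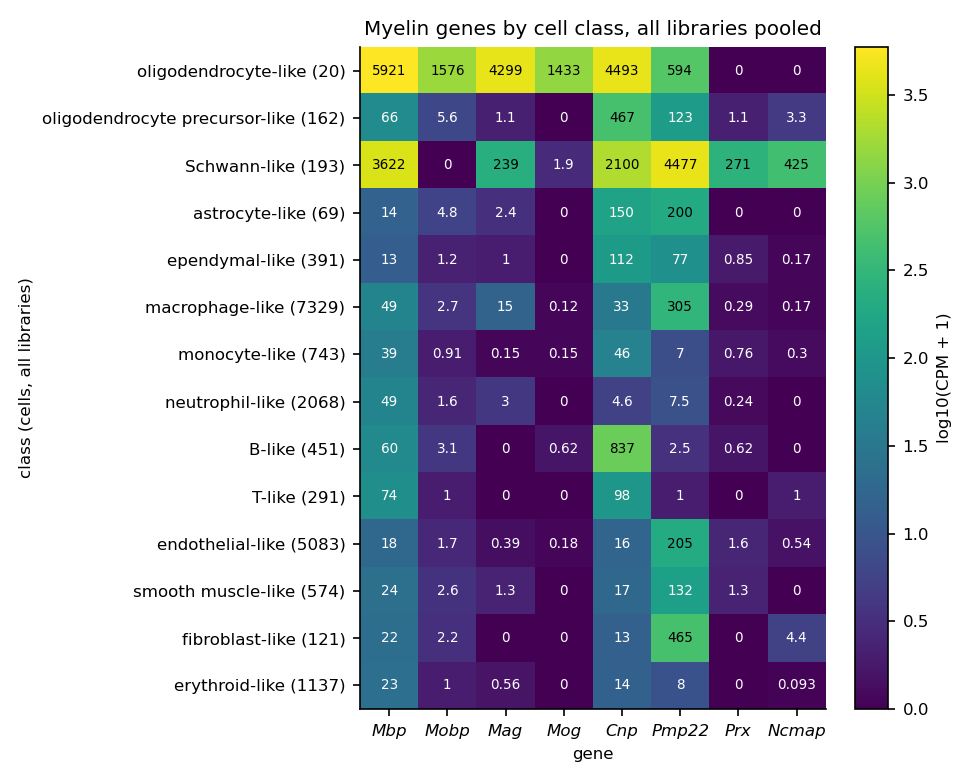
Heatmap of the level of each gene (columns) in each cell class (rows, with the number of cells), all 4 libraries pooled, coloured by log10(CPM + 1) and printed as CPM. Mobp, Mag, Mog and Cnp peak in oligodendrocyte-like cells and Pmp22, Prx and Ncmap in Schwann-like cells, while Cnp is also high in B-like cells (837 CPM) and Mag stands at 14.7 CPM in macrophage-like cells.

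Oligodendrocyte-like cells were rare. They were 0 of 5066 kept cells in the library labelled CD8 KO, 2 of 4788 in CD8 WT at 33 weeks, 0 of 4692 in CD8 WT at 30 weeks and 18 of 5640 in P301S neg. The share was 0.319% (0.189 to 0.504) in P301S neg, and the 2 counts of 0 set upper limits, 0.0592% for the library labelled CD8 KO and 0.0639% for CD8 WT at 30 weeks. Whether the bead depletion took different parts of these cells in each library was not tested. All 13 oligodendrocyte markers were detected in at least 10% of these cells and together stood at 14439 CPM, while 7 of 13 Schwann markers were at 0, among them Cldn19 and Drp2. No ratio between libraries was formed, since the class held fewer than 30 cells everywhere.

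In the 18 oligodendrocyte-like cells of P301S neg, Mbp stood at 5844 CPM (956 UMIs), Cnp at 4444 CPM, Mag at 4181 CPM, Mobp at 1540.4 CPM and Mog at 1467 CPM. Each of these 5 genes was found in every one of the 18 cells. Single cells ranged from 3693 to 9362 CPM for Mbp, with a median of 5288, and from 3056 to 6538 CPM for Cnp, with a median of 4883. Mog varied more, from 443 to 3461 CPM around a median of 1337, and Mag ranged from 988 to 6755 CPM around a median of 4074. Pmp22 reached 617 CPM, with at least 1 cell at 0 UMIs. Prx and Ncmap had 0 UMIs in these cells. The 2 cells of CD8 WT at 33 weeks showed the same genes, with Mbp at 7008 CPM, Mag at 5969 CPM, Cnp at 5191 CPM, Mobp at 2076 CPM and Mog at 952 CPM.

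Oligodendrocyte precursor-like cells, which divide and can become oligodendrocytes, carried more Cnp than any other member. There were 53, 34, 37 and 38 such cells in the library labelled CD8 KO, CD8 WT at 33 weeks, CD8 WT at 30 weeks and P301S neg. Cnp stood at 568 CPM in the library labelled CD8 KO, 387 CPM in CD8 WT at 33 weeks, 522 CPM in CD8 WT at 30 weeks and 313 CPM in P301S neg. Mbp stood at 51.1, 20.4, 39.8 and 147 CPM in the same order of libraries, and Pmp22 at 137, 102, 146 and 90.2 CPM. Of the other members, Mobp had 5 UMIs in the 162 cells together, Ncmap 3, Mag and Prx 1 each and Mog 0. Between P301S hom and P301S neg at 30 weeks, Cnp was 1.67 times as high (1.22 to 2.29) and Mbp 0.270 times (0.113 to 0.582, from 9 UMIs in P301S hom and 31 in P301S neg). A gene was counted as higher or lower past 1.5-fold when its UMIs in the compared libraries summed to at least 20 and it had an interval that left out 1. By that rule 2 of the 3 members with enough UMIs were counted in these cells, beside 5.91% of all genes tested.

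Schwann-like cells outnumbered oligodendrocyte-like cells in every library. There were 91 in the library labelled CD8 KO (1.80% of kept cells), 31 in CD8 WT at 33 weeks (0.647%), 37 in CD8 WT at 30 weeks (0.789%) and 34 in P301S neg (0.603%). Over all libraries 11 of 13 Schwann markers were found in at least 10% of these cells, while the central markers Opalin, Ermn, Olig1, Olig2 and Hapln2 had 0 UMIs. The library labelled CD8 KO also held 24 neuron-like cells, a class with 0 cells in the other libraries. Schwann-like cells had the highest level of Pmp22, Prx and Ncmap of any named class. Mobp had 0 UMIs in all 193 Schwann-like cells and Mog had 1.

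In these cells Pmp22 stood at 3402 CPM in the library labelled CD8 KO, 6641 CPM in those of CD8 WT at 33 weeks, 5445 CPM in those of CD8 WT at 30 weeks and 5193 CPM in those of P301S neg. Mbp stood at 2671, 4750.0, 4953 and 4318 CPM in the same order of libraries. In both genes the library labelled CD8 KO was lowest, and the interval of its value lay below those of the other 3. Cnp stood at 1830.5, 2498, 2434 and 2286 CPM and Mag at 192, 303, 388 and 141 CPM in that order. Mag was thus lowest in P301S neg, where it rested on 10 UMIs. Prx stood at 177, 375, 417 and 325 CPM and Ncmap at 309, 693, 492 and 522 CPM in that order.

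Schwann-like cells were not uniform, and the members divided them. A sub-cluster of 46 cells, found without any of the 8 genes, was led by other genes of myelinating Schwann cells and is called Ncmap-high here. It was picked as the Schwann-like sub-cluster with the highest Ncmap level, so a higher Ncmap there was fixed by the choice. In this sub-cluster Ncmap was 41.5 times as high (24.9 to 73.9) as in the other 147 Schwann-like cells, at 1652 CPM against 39.8 CPM. Prx was 11.1 times as high (7.41 to 16.9), Mbp 6.44 times (5.85 to 7.09) and Pmp22 3.54 times (3.27 to 3.84). Mag was 2.99 times as high (2.08 to 4.31) and Cnp 1.82 times (1.60 to 2.06). The same side was higher in each library for Ncmap, Prx, Mbp and Pmp22. Mag and Cnp differed less clearly in CD8 WT at 33 weeks, where the ratios were 1.11 (0.423 to 2.88) and 1.10 (0.807 to 1.501). These are differences between clusters and not between conditions, and are given with no test.

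Among the genes that set the sub-cluster apart, Cldn19, a tight junction protein of the Schwann cell, stood at 1024 CPM in Ncmap-high and 34.9 CPM in the other cells. Drp2, a partner of periaxin, stood at 484 and 17.4 CPM. Scn7a, a sodium channel gene known from non-myelinating Schwann cells, stood at 7.94 CPM in Ncmap-high and 1583 CPM in the other cells. Cldn19, Drp2 and Scn7a were not kept out of the clustering, so these differences may follow in part from the grouping. Pmp22 and Mbp did not vanish outside Ncmap-high: Pmp22 stood at 2786 CPM and Mbp at 1576 CPM in the other 147 cells. Median values over single cells were 9278 CPM for Mbp in Ncmap-high and 1332 CPM in the other cells.

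**Figure D2:**
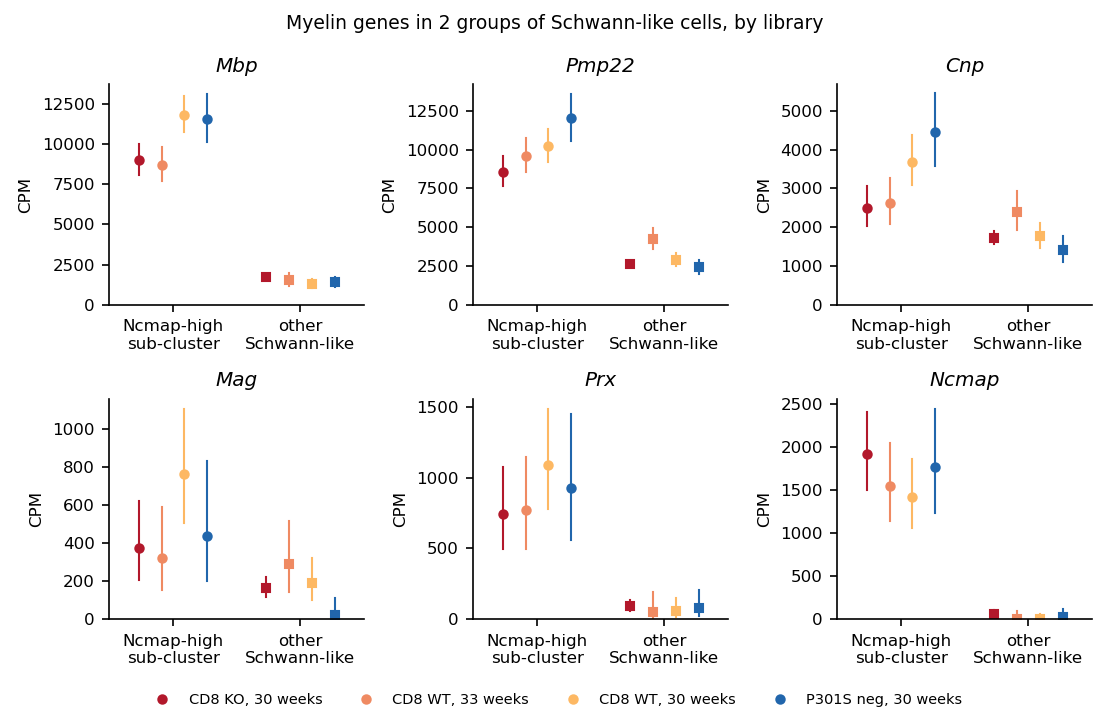
Level (CPM, linear axes from 0) of 6 members in the Ncmap-high sub-cluster (circles, 9 to 15 cells a library) and in the other Schwann-like cells (squares, 20 to 80 cells a library). Colours mark the 4 libraries, in which CD8 KO and CD8 WT are P301S hom, and lines are 95% intervals of the counts. Ncmap-high cells sit well above the others for Prx, Mbp and Pmp22 in every library, and for Ncmap, the gene they were picked by.

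The first comparison of Schwann-like cells, CD8 KO over CD8 WT in P301S hom mice at 30 weeks, had most members lower. Of 6 members with enough UMIs, 5 were lower in the library labelled CD8 KO and none was higher, while 9.57% of the 3313 genes tested in this class were called in either direction and 4.14% were called lower. Prx stood at 0.426 times its level in CD8 WT (0.278 to 0.653), Mag at 0.493 times (0.323 to 0.759), and Mbp at 0.539 times (0.482 to 0.604). Pmp22 stood at 0.625 times (0.563 to 0.694) and Ncmap at 0.627 times (0.440 to 0.902). Cnp, at 0.752 times (0.646 to 0.877), stayed inside 1.5-fold. The median log2 ratio was -0.78 over the 6 members and 0.02 over all genes tested.

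The mix of Schwann-like cells moved with this comparison. Ncmap-high cells were 11 of 91 (12.1%, 6.19 to 20.6) in the library labelled CD8 KO, against 15 of 37 (40.5%, 24.8 to 57.9) in CD8 WT at 30 weeks. They were 11 of 31 (35.5%) in CD8 WT at 33 weeks and 9 of 34 (26.5%) in P301S neg. Without the Ncmap-high cells none of 5 members passed the rule, from 80 cells in the library labelled CD8 KO and 22 in CD8 WT. Mbp then had a ratio of 1.30 (1.03 to 1.65) and Prx of 1.55 (0.527 to 6.20, from 22 UMIs in the library labelled CD8 KO against 4), both the other way. Mag stood at 0.869 times (0.455 to 1.77), Cnp at 0.977 times (0.797 to 1.21) and Pmp22 at 0.898 times (0.765 to 1.06), and Ncmap had too few UMIs. Within Ncmap-high, Mbp stood at 8974 CPM in the library labelled CD8 KO and 11819 CPM in CD8 WT at 30 weeks. In the same order, Pmp22 stood at 8576 and 10236 CPM and Cnp at 2496 and 3685 CPM. Mag stood at 372 and 764 CPM and Prx at 743 and 1092 CPM, also lower in the library labelled CD8 KO. Ncmap went the other way, at 1912 and 1419 CPM. No ratio between libraries was formed within Ncmap-high, which held 11 and 15 cells there. In the other Schwann-like cells, Mbp stood at 1699 CPM in the library labelled CD8 KO and 1305 CPM in CD8 WT at 30 weeks.

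Other myelin genes of the Schwann-like cells, from lists chosen with earlier results known, were read beside the members. Of 10 measured genes of a central myelin list, 5 were lower in the library labelled CD8 KO and none was higher, with a median log2 ratio of -0.64, beside the 4.14% of all genes called lower. They were Ugt8a and Fa2h, both enzymes of myelin galactolipid synthesis, with Plekhb1, Trf and Qdpr. Ugt8a stood at 88.7 CPM in the library labelled CD8 KO and 265 CPM in CD8 WT (ratio 0.334, 0.187 to 0.595). Of 12 measured peripheral genes, Cldn19 and Pllp were lower and Fxyd3 was higher, and Pllp stood at 280.3 CPM in the library labelled CD8 KO and 568 CPM in CD8 WT (ratio 0.493). Of 5 measured transcription factors, Pou3f1, a regulator of the start of Schwann cell myelination, was lower, at 252 CPM in the library labelled CD8 KO and 691 CPM in CD8 WT (ratio 0.364, 0.259 to 0.512). Egr2, the main activator of peripheral myelin genes, stood at 575 CPM in the library labelled CD8 KO and 672 CPM in CD8 WT (ratio 0.855, 0.643 to 1.15). Some of these genes mark the Ncmap-high cells, whose share differed: Ugt8a stood at 524 CPM in Ncmap-high and 42.3 CPM in the other cells, and Pou3f1 at 1167 and 251 CPM. Without the Ncmap-high cells 1 of 7 central genes was lower, Qdpr at a ratio of 0.306 (0.129 to 0.733), and none of 9 peripheral genes and 4 transcription factors was counted, beside 7.49% of all genes tested. Ugt8a, Fa2h, Trf and Cldn19 then had too few UMIs for a call.

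For P301S hom over P301S neg at 30 weeks, 1 of 6 members was counted in Schwann-like cells, beside 8.06% of the 1538 genes tested. This was Mag, at 388 CPM (41 UMIs) in P301S hom and 141 CPM (10 UMIs) in P301S neg, a ratio of 2.75 (1.36 to 6.16). Outside Ncmap-high, Mag had 13 UMIs in P301S hom and 1 in P301S neg, too few for a call. Mbp had a ratio of 1.15 (0.994 to 1.33), Pmp22 of 1.05 (0.918 to 1.20) and Cnp of 1.06 (0.871 to 1.30). Prx had a ratio of 1.28 (0.759 to 2.23) and Ncmap of 0.943 (0.607 to 1.48). Of 11 peripheral genes, Egr2 was higher, at 672 CPM in P301S hom and 325 CPM in P301S neg (ratio 2.07, 1.28 to 3.47), and Fxyd3 was lower. None of 9 central genes passed the rule. Egr2 stood at 905 CPM in Ncmap-high and 456 CPM in the other Schwann-like cells. Without the Ncmap-high cells, which left 22 cells in P301S hom and 25 in P301S neg, the ratio of Egr2 was 1.72 (0.897 to 3.48), not counted. Fxyd3 was then not counted either, at 0.393 (0.133 to 1.06). Of 3 transcription factors Pou3f1 was lower, at 0.478 (0.243 to 0.915), beside 10.1% of all genes tested.

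For 33 over 30 weeks in P301S hom CD8 WT, none of 6 members was counted in Schwann-like cells, beside 6.15% of the 1511 genes tested. Ratios lay between 0.781 for Mag (0.438 to 1.35) and 1.41 for Ncmap (0.930 to 2.12). Of the other lists, Qdpr of 8 central genes and Lgi4, a secreted factor of Schwann cells, of 11 peripheral genes were lower at 33 weeks.

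Mag stood out among the members in macrophage-like cells. The share of these cells with a Mag UMI was 12.5% in the library labelled CD8 KO (median 9316 UMIs a cell), 9.97% in CD8 WT at 33 weeks (median 8170), 13.4% in CD8 WT at 30 weeks (median 10417) and 11.1% in P301S neg (median 4985). In endothelial-like cells, which line vessels and should lack the gene, the shares were 0.383%, 0.1001%, 0.296% and 0.227% in the same order, at medians of 4583.5, 3879, 4738 and 5550 UMIs. With every cell thinned to 1000 UMIs, which left out 47, 50, 35 and 147 shallower macrophage-like cells, Mag was found in 1.71%, 1.68%, 2.45% and 2.93% of this class, while endothelial-like cells reached at most 0.103%. In the library labelled CD8 KO its level was 14.1 CPM (12.6 to 15.6), beside 11.96 CPM in CD8 WT at 33 weeks, 13.7 CPM in CD8 WT at 30 weeks and 26.3 CPM (22.5 to 30.6) in P301S neg. The share of macrophage-like cells with Mag was thus above that of endothelial-like cells in each of the 4 libraries.

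In P301S neg the ratio of Mag to Mobp UMIs in macrophage-like cells was nearer to that of oligodendrocyte-like than of endothelial-like cells. The intervals of the macrophage-like and oligodendrocyte-like ratios overlapped. There were 2.71 Mag UMIs for each Mobp UMI (2.35 to 3.15) in the oligodendrocyte-like cells of P301S neg and 4.37 (3.06 to 6.39) in its macrophage-like cells. In its endothelial-like cells there were 0.0784 (0.0206 to 0.213). Without the shallow cluster 15, described below, the macrophage-like cells of P301S neg held 162 Mag and 27 Mobp UMIs, a higher ratio. Overlap of the intervals without that cluster was not tested. In the barcodes of P301S neg left out by the filters or as called doublets, the ratio was 0.133 (0.0719 to 0.228). Over the P301S hom libraries the ratio in macrophage-like cells ran from 3.56 to 7.17. Mag was spread over many macrophage-like cells: 874 of 7329 had a Mag UMI, none had more than 3, and 16 of those 874 also had a Mobp UMI. Mog was at 0.0952 to 0.159 CPM in this class, which over all libraries held 19 Prx and 11 Ncmap UMIs, and the 13 oligodendrocyte markers together stood between 3.36 and 10.5 CPM over the libraries, against 14439 CPM in oligodendrocyte-like cells. The part of free RNA or engulfed myelin in the Mag UMIs was not tested.

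Mag also differed among macrophage-like clusters. Cluster 14, led by the microglial genes P2ry12 and Tmem119, stood at 26.8 CPM in the library labelled CD8 KO, 25.3 CPM in CD8 WT at 33 weeks, 29.9 CPM in CD8 WT at 30 weeks and 28.2 CPM in P301S neg. Cluster 3, led by Spp1 and Gpnmb, genes of activated microglia, stood at 11.3, 6.81 and 10.5 CPM in the P301S hom libraries in that order. Cluster 0, led by Ccl3 and complement genes, stood between 15.3 and 16.2 CPM, and cluster 1, led by Gpnmb, between 8.44 and 12.7 CPM, over the P301S hom libraries. Mobp stood between 1.38 and 4.25 CPM in clusters 0, 1, 3 and 14 of every library with at least 30 cells there, but not in cluster 15. That cluster, led by C1qb and P2ry12, was shallow, with a median of 973 UMIs a cell in its 203 cells of P301S neg. In these cells Mobp stood at 46.7 CPM (23.3 to 83.6, 11 UMIs), Mbp at 591 CPM (139 UMIs) and Mag at 17.0 CPM (4.63 to 43.5, 4 UMIs).

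**Figure D3:**
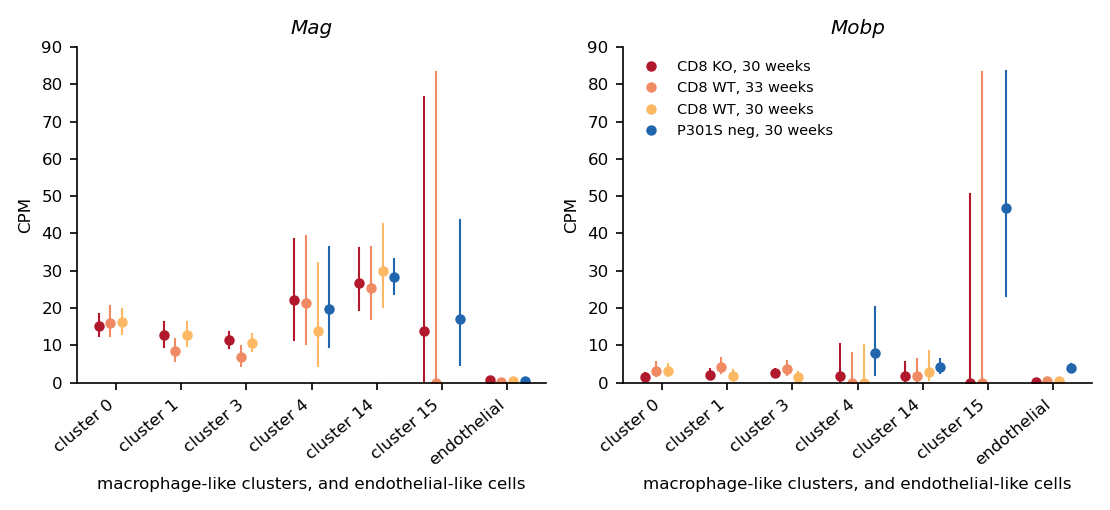
Level of Mag (left) and Mobp (right), in CPM on linear axes from 0, in macrophage-like clusters and in endothelial-like cells of each library with at least 30 cells. Points are the 4 libraries, in which CD8 KO and CD8 WT are P301S hom, and lines are 95% intervals of the counts. Mag lies between 25.3 and 29.9 CPM in cluster 14 of the 4 libraries and at most at 0.602 CPM in endothelial-like cells, while Mobp lies at 7.89 CPM or lower except in cluster 15 of P301S neg (46.7 CPM).

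For P301S hom over P301S neg at 30 weeks, 4 of 5 members were lower in macrophage-like cells, beside 42.9% of all 11807 genes tested in either direction and 33.1% lower, so the count stands against a large background. Mbp stood at 39.7 CPM in P301S hom and 88.1 CPM in P301S neg (ratio 0.451, 0.404 to 0.502). Mobp stood at 2.09 and 6.02 CPM (ratio 0.348, 0.220 to 0.552), Mag at 13.7 and 26.3 CPM (ratio 0.519, 0.427 to 0.633), and Cnp at 28.4 and 54.2 CPM (ratio 0.523, 0.457 to 0.600), with P301S hom first. Pmp22 stood at 284 and 384 CPM (ratio 0.741, 0.707 to 0.778). The median log2 ratio of all genes in this class was -0.37 and the trimmed-mean (TMM) scaling moved all values by -0.44, and with that scaling 2 members, Mbp and Mobp, were counted. P301S hom CD8 WT at 30 weeks had no male cells and P301S neg held both sexes. Among female cells alone the ratio of Mbp was 0.685 (0.581 to 0.812), inside 1.5-fold, while Mobp (0.473), Mag (0.416) and Cnp (0.503) were counted as lower.

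Different clusters held the class in these libraries: cluster 14 held 190 of 1951 in P301S hom CD8 WT, where clusters 0, 1 and 3 held most, against 994 of 1341 in P301S neg. Within cluster 14, 1 member was counted, Mbp at 0.363 times its level in P301S neg, and Mag stood at 29.9 CPM in P301S hom and 28.2 CPM in P301S neg, a log2 ratio of 0.083. A few cells also weighed on Mbp: 8 cells of P301S neg with 10 or more Mbp UMIs held 32.4% of its Mbp UMIs in this class, against 3.84% in 2 cells of P301S hom CD8 WT at 30 weeks. In the library labelled CD8 KO, 1 macrophage-like cell held 131 Mbp and 9 Prx UMIs among its 1656 UMIs.

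Between the library labelled CD8 KO and CD8 WT at 30 weeks, none of 5 members was counted in macrophage-like cells, beside 4.27% of genes tested, and the ratios lay between 0.936 for Mobp (0.607 to 1.45) and 1.22 for Mbp (1.12 to 1.34). Between 33 and 30 weeks 1 of 5 was counted, beside 2.78% of genes tested. It was Mobp, at 3.36 CPM (48 UMIs) at 33 weeks and 2.09 CPM (44 UMIs) at 30 weeks, a ratio of 1.60 (1.04 to 2.47), and among female cells alone the ratio was 1.44 (0.755 to 2.62), from 16 UMIs at 33 weeks and 41 at 30 weeks.

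Pmp22 was also abundant outside the oligodendrocyte-like and Schwann-like classes. In endothelial-like cells it was found in 49.7% to 63.4% of cells, and it stood at 253 CPM in the library labelled CD8 KO, 215 CPM in CD8 WT at 33 weeks, 261 CPM in CD8 WT at 30 weeks and 143 CPM in P301S neg. Fibroblast-like cells stood between 378 and 570 CPM in the 3 libraries with at least 30 such cells, where Cnp was at most at 22.6 CPM, Ncmap at 18.1 CPM and Mag, Mog and Prx at 0, and macrophage-like cells between 284 and 384 CPM. In B-like and T-like cells Pmp22 was at most 9.48 CPM, in no more than 1.43% of cells. The intervals of endothelial-, fibroblast- and macrophage-like cells lay above those of B-like and T-like cells in every library with enough cells.

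In endothelial-like cells, 4 of 5 members were counted for P301S hom over P301S neg at 30 weeks, beside 6.96% of the 11967 genes tested. Pmp22 was higher, at a ratio of 1.83 (1.71 to 1.96), and was also found in more cells. Prx was higher, at 3.50 CPM (23 UMIs) in P301S hom and 1.13 CPM (15 UMIs) in P301S neg, a ratio of 3.098 (1.55 to 6.38). Without cells of 10 or more Mbp UMIs the ratio of Prx fell to 2.30 (1.05 to 5.09), still counted. It then rested on 16 UMIs in P301S hom and 14 in P301S neg. Mbp was lower, at 14.4 CPM in P301S hom and 31.6 CPM in P301S neg (ratio 0.457, 0.362 to 0.572), and Mobp was lower, at 3 UMIs in P301S hom and 51 in P301S neg (ratio 0.119, 0.0237 to 0.367). Cnp had a ratio of 1.07 (0.846 to 1.35). Mag, Mog and Ncmap had too few UMIs to compare. The class thus held less of the central genes Mbp and Mobp and more Pmp22 in P301S hom.

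Between the library labelled CD8 KO and CD8 WT at 30 weeks, 2 of 4 members were lower in endothelial-like cells, beside 3.16% of genes tested called in either direction and 1.66% lower: Mbp at a ratio of 0.325 (0.218 to 0.477) and Prx at 0.276 (0.107 to 0.638). In CD8 WT at 30 weeks 2 cells held 41 of the 95 Mbp UMIs, and without cells of 10 or more Mbp UMIs the ratio was 0.569 (0.367 to 0.876) for Mbp and 0.394 (0.146 to 0.976) for Prx, both still counted as lower. Among cells rebuilt from those with at least 1000 UMIs neither was counted, and the log2 ratio of Mbp was 0.50, the other way. Between 33 and 30 weeks, 2 of 4 were lower, beside 4.05% called in either direction and 2.43% lower: Mbp at 0.663 (0.463 to 0.942) and Prx at 0.322 (0.107 to 0.815). The same library is the one compared with here, and without those cells the ratio of Mbp was 1.16 (0.776 to 1.74), the other way. Among female cells alone, 3 members were lower: Mbp at 0.452, Cnp at 0.610 and Prx at 0.159, the last from 1 UMI at 33 weeks and 22 at 30 weeks. Pmp22 had ratios of 0.970 (0.910 to 1.03) for CD8 KO over CD8 WT and 0.823 (0.763 to 0.887) for 33 over 30 weeks.

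Few other classes held enough Pmp22 for a call. For P301S hom over P301S neg it was lower in fibroblast-like cells, at 378 CPM in P301S hom and 569.8 CPM in P301S neg (ratio 0.664, 0.499 to 0.879), where 11.8% of all genes tested were called. In erythroid-like cells it was higher, at a ratio of 2.32 from 24 UMIs in P301S hom and 18 in P301S neg, where 29.5% of all genes tested were called and the median log2 ratio of all genes was 0.49. In the library labelled CD8 KO it was higher than in CD8 WT at 30 weeks in smooth muscle-like cells, at 166 CPM against 81.3 CPM (ratio 2.04, 1.28 to 3.42), where 7.4% of all genes tested were called. There it was also higher in erythroid-like cells (22 UMIs against 24, in fewer cells) and neutrophil-like cells (14 UMIs against 14), with 13.7% and 11.1% of genes called. Monocyte-like cells had 0 Pmp22 UMIs in the library labelled CD8 KO and 6 in CD8 WT at 33 weeks, against 25 in CD8 WT at 30 weeks, and were called lower in both comparisons, beside 7.28% and 5.11% of genes. These 2 comparisons share the CD8 WT library of 30 weeks. The monocyte-like class joined cluster 18, led by Plac8 and Chil3, with cluster 27, led by Prss34, Elane and Prtn3. Cluster 27 held 25 of its 83 cells in the library labelled CD8 KO. It held 124 of 259 in CD8 WT at 33 weeks and 96 of 198 in CD8 WT at 30 weeks, so the mix differed.

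**Figure D4:**
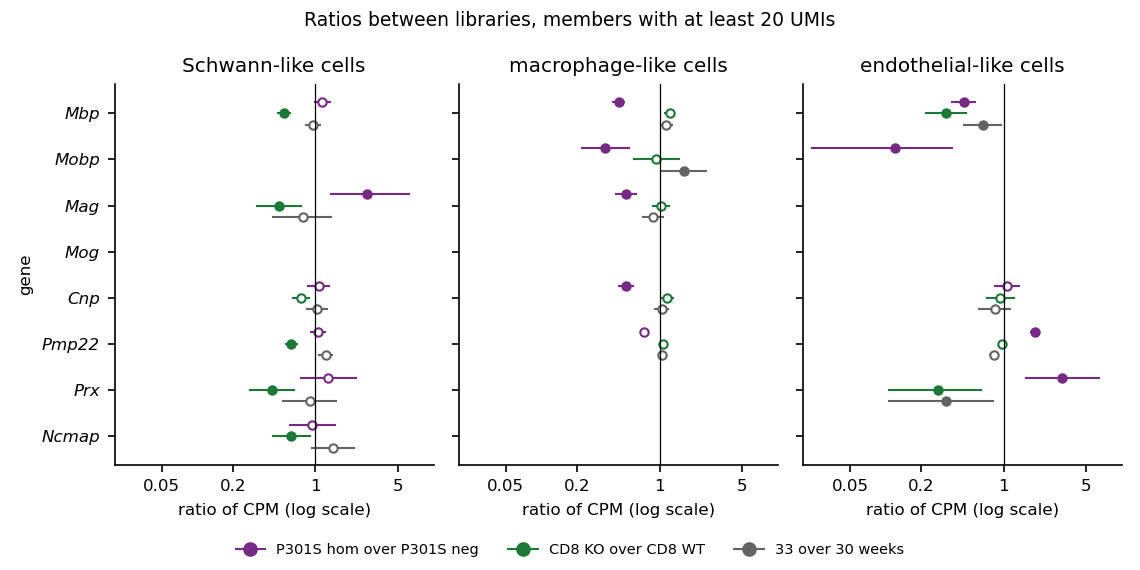
Ratios of CPM between libraries (log axis) for members that reached the minimum of 20 UMIs over the libraries compared, in 3 cell classes, with 95% intervals. Colours mark the 3 comparisons and filled points are those past 1.5-fold with an interval that leaves out 1. In Schwann-like cells the CD8 comparison (green) lies left of 1 for all 6 members, and in endothelial-like cells Pmp22 and Prx lie right of 1 for P301S hom over P301S neg (purple) while Mbp and Mobp lie left.

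Cnp was also abundant outside glia. In B-like cells it stood at 1030.5 CPM in the library labelled CD8 KO (43 cells), 749 CPM in CD8 WT at 33 weeks (70 cells), 1017 CPM in CD8 WT at 30 weeks (71 cells) and 790.3 CPM in P301S neg (267 cells). It was found in 83.7%, 82.9%, 88.7% and 84.6% of B-like cells in the same order, at medians of 2076, 2239, 2485 and 2439 UMIs a cell. In endothelial-like cells the share ran from 7.31% to 10.5%. Thinned to 1000 UMIs, the shares in B-like cells were 57.1%, 55.9%, 59.2% and 58.7%, against at most 2.17% in endothelial-like cells. Mag and Ncmap had no UMI in any of the 451 B-like cells, Prx and Mog had 1 each and Mobp had 5, and 10 of 13 oligodendrocyte markers were at 0 in them. Ependymal-like cells, which line the central canal, had Cnp between 101 and 119 CPM, and T-like cells between 83.4 and 108 CPM. Of the other members, ependymal-like cells of any library held at most 3 UMIs each of Mobp, Mag and Prx and 1 of Ncmap, and T-like cells held at most 1 each of Mobp, Pmp22 and Ncmap.

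Mbp was found in every class and every library with at least 30 cells, which the other members were not. Outside the oligodendrocyte-, precursor- and Schwann-like classes, its level ran from 4.70 CPM (endothelial-like, in the library labelled CD8 KO) to 88.1 CPM in the macrophage-like cells of P301S neg. For P301S hom over P301S neg at 30 weeks it could be compared in 11 classes and was lower in 8 and higher in 1, the ependymal-like cells (ratio 2.18). The share of all genes tested that was called there in either direction was 42.9% in macrophage-like, 29.5% in erythroid-like and 8.78% in T-like cells. It was 8.06% in Schwann-like, 7.25% in neutrophil-like, 6.96% in endothelial-like and 6.18% in monocyte-like cells. It was 5.96% in B-like, 5.91% in oligodendrocyte precursor-like, 5.24% in smooth muscle-like and 4.91% in ependymal-like cells. In the barcodes left out by the filters or as called doublets, Mbp stood at 50.2 CPM in the library labelled CD8 KO. There it stood at 100.3 CPM in CD8 WT at 33 weeks and 78.1 CPM in CD8 WT at 30 weeks. It stood at 198 CPM in those of P301S neg, the library with the most oligodendrocyte-like cells. Called doublets among these barcodes numbered 69, 42, 59 and 98 in the same order of libraries. The part of free RNA in the level of Mbp in each class was not tested. For CD8 KO over CD8 WT, Mbp was lower in 3 of 9 classes. Beside the Schwann-like and endothelial-like cells these were the ependymal-like cells, with 9 UMIs in the library labelled CD8 KO and 29 in CD8 WT (ratio 0.299, 0.124 to 0.649), where 4.61% of all genes tested were called. The comparison of 33 with 30 weeks had Mbp lower in 1 of 8 classes, the endothelial-like cells.

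**Figure D5:**
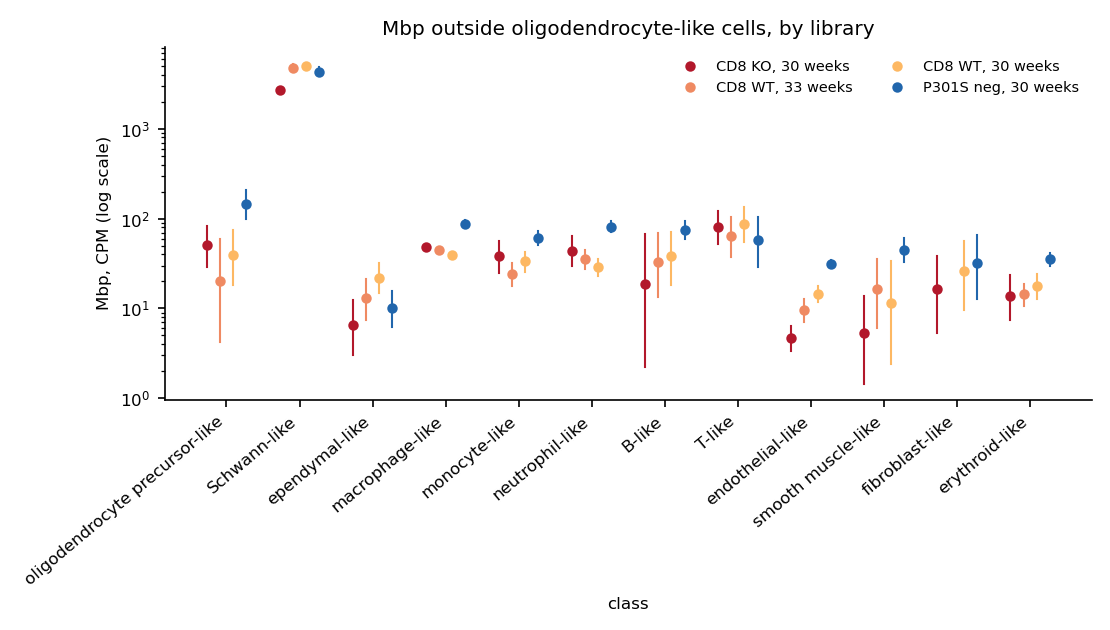
Level of Mbp (CPM, log axis) by cell class and library, for libraries with at least 30 cells of the class, with 95% intervals of the counts; CD8 KO and CD8 WT are P301S hom. Schwann-like cells lie at 2671 CPM or higher in all libraries and the other classes shown at 147 CPM or lower, and P301S neg is the highest library in macrophage-, neutrophil- and endothelial-like cells, but not in ependymal-like cells.

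The ratio of Mbp to Mobp UMIs differed between classes. In P301S neg it was 3.79 (3.30 to 4.38) in oligodendrocyte-like cells, 8.24 (6.15 to 11.2) in endothelial-like cells and 14.6 (10.5 to 20.9) in macrophage-like cells. In the left-out barcodes of P301S neg, called doublets included, it was 6.89 (5.65 to 8.47). Schwann-like cells, with Mbp at 2671 CPM or more and no Mobp in any library, have no such ratio.

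Over the 36 pairs of a class and a library with at least 50 cells, the genes most like a member in log2(CPM + 5) were found by Pearson's r, given as a description since these pairs share libraries. For Pmp22 they were Sparc (0.960), Tln2 (0.933), Dst (0.905), Egr2 (0.898) and Ctsf (0.889), and without the highest point the values lay between 0.876 and 0.971. For Prx they were Cldn11 (0.966), Dhh, Scn7a, Sostdc1 and Lgi4 (0.938), but without the highest point (Schwann-like, the library labelled CD8 KO) none was above 0.368. Within Schwann-like cells some of these ran against Prx, which was higher in Ncmap-high. There Cldn11 had 0 UMIs, Scn7a had 1 and Lgi4 stood at 111 CPM, against 433 CPM for Lgi4 in the other cells. Dhh went with Prx, at 357 CPM in Ncmap-high and 154 CPM in the other cells. For Mbp, Lgi4 came first (0.779, and 0.337 without that same point). For Mobp, Amigo3 came first (0.628, and 0.534 without the highest point).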

How the data were processed

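The deposited values were raw UMI counts, with genes as rows and cell barcodes as columns, made by the authors with Cell Ranger 6.0.1 per the file headers, on mm10 per the submitters' processing notes, as filtered matrices. Barcodes with at least 500 UMIs, 200 genes and at most 15% mitochondrial UMIs were kept, and doublets were removed with scrublet at an expected rate of 6%, in scanpy 1.11.5 under Python 3.11.15, which called between 42 and 98 a library. Cells were clustered without batch integration and without the 8 genes: 2000 variable genes, 30 principal components, 15 neighbours and Leiden resolution 1 (igraph 0.11.9), giving 33 clusters. Glial and neuronal cells were clustered again with 15 components into 14 sub-clusters. A cluster was named when at least 3 markers of a list were found in 10% of its cells. Clusters that held markers of another lineage were set aside, and these and unnamed clusters held between 5.95% and 10.5% of kept cells. Sex was called from Xist and Y-linked UMIs.

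UMIs were summed per class and library and scaled to CPM, with exact Poisson intervals for CPM, Clopper-Pearson for shares and conditional-binomial for ratios (scipy 1.17.1, numpy 2.4.6, pandas 2.3.3). Classes needed 30 cells in both libraries, except for ratios without the Ncmap-high cells, which rest on 20 to 80 Schwann-like cells a library. A count of 0 was given the upper limit of 3 UMIs. The ratio rule was tested on simulated counts with known folds. All 8 members were to be named in each class described, and of the other myelin lists up to 6 measured genes a comparison, those with the most UMIs, beside every gene counted as higher or lower; the genes most like a member were sought for Mbp, Mobp, Pmp22 and Prx. Some genes that the rule selects, members with few UMIs in a class among them, are left out of the text. The members, marker lists and gene lists were chosen with earlier results of these data known. Alternatives changed the cell filters, doublet removal, clustering genes, scaling, count minimum, fold and sex. Figures were drawn with matplotlib 3.10.9.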

Additional observations from a re-analysis of the deposited data

Results flagged for a closer look

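Some members were counted as higher in one cell class and lower in another under the same comparison. The differences between classes were not tested, and each ratio comes from 1 library a group. For P301S hom over P301S neg at 30 weeks, Mag had a ratio of 2.75 in Schwann-like cells and 0.519 in macrophage-like cells. Cnp had a ratio of 1.67 in oligodendrocyte precursor-like cells, 0.523 in macrophage-like cells and 0.432 in neutrophil-like cells, the last from 10 UMIs in P301S hom and 22 in P301S neg. Mbp was higher in ependymal-like cells alone among the classes compared, at a ratio of 2.18 from 29 UMIs in P301S hom and 20 in P301S neg. Its ratio was 0.512 in B-like, 0.457 in endothelial-like, 0.508 in erythroid-like and 0.451 in macrophage-like cells. It was 0.548 in monocyte-like, 0.355 in neutrophil-like, 0.270 in oligodendrocyte precursor-like and 0.258 in smooth muscle-like cells. Pmp22 was higher in endothelial-like cells (1.83) and erythroid-like cells (2.32) and lower in fibroblast-like cells (0.664).

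In the library labelled CD8 KO, Pmp22 was higher than in CD8 WT at 30 weeks in erythroid-like cells (2.17), neutrophil-like cells (4.58, from 14 UMIs in each library) and smooth muscle-like cells (2.04). It was lower in Schwann-like cells (0.625) and in monocyte-like cells, where it had 0 UMIs in the library labelled CD8 KO and 25 UMIs in CD8 WT, a ratio of 0 with an interval that reached 0.472. Of cells with a sex call, all but 4 were male in the library labelled CD8 KO, and all were female in CD8 WT at 30 weeks.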

How the results depend on the processing

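Of 122 counts and summaries recomputed under the alternatives, 98 stayed within 1.5 times and 24 moved. Of 533 single ratios, 481 stayed within their interval, 46 moved and 6 turned direction. Beside a main count of 5 in Schwann-like cells for CD8 KO over CD8 WT, 3 members passed with at least 100 UMIs, 2 at a fold of 2 and 0 without the Ncmap-high sub-cluster, where the log2 ratio turned to 0.38 for Mbp and 0.64 for Prx. For P301S hom over P301S neg the Schwann-like count of 1 became 0 with at least 100 UMIs and 0 without that sub-cluster, where Mag fell under the minimum of 20 UMIs. In macrophage-like cells the count of 4 for P301S hom over P301S neg became 2 with TMM scaling, 2 at a fold of 2 and 1 within cluster 14, where the log2 ratio of Mag turned to 0.083. The count of 0 for CD8 KO over CD8 WT became 1 with means over cells. The count of 1 for 33 over 30 weeks became 0 with means over cells, female cells, at least 100 UMIs, a fold of 2 or cluster 14. In endothelial-like cells the count of 4 became 2 with at least 100 UMIs. For CD8 KO over CD8 WT the count of 2 became 0 with cells of at least 1000 UMIs, where the log2 ratio of Mbp turned to 0.50, and 1 with at least 100 UMIs. For 33 over 30 weeks the count of 2 became 1 with at most 10% mitochondrial UMIs, doublets kept, means over cells, at least 100 UMIs or a fold of 2, and 0 without cells of 10 or more Mbp UMIs, but 3 with female cells alone. The log2 ratio of Mbp turned to 0.44 with means over cells and to 0.22 without those cells. Thinning cells to 1000 UMIs lowered the number of class, library and gene combinations with the gene in at least 10% of cells to 75, against 129 unthinned. The alternatives without the Ncmap-high sub-cluster, within cluster 14 and without cells of 10 or more Mbp UMIs were chosen after seeing the data. Apart from settings whose construction removes cells or genes, the cause of each move was not tested. No paired analysis was possible because each group is 1 library.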

Other observations

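A sub-cluster with astrocyte markers was set aside because it also held markers of another lineage. It had 8 cells in the library labelled CD8 KO, 3 in CD8 WT at 33 weeks, 4 in CD8 WT at 30 weeks and 29 in P301S neg. Mbp stood there at 153 CPM in the library labelled CD8 KO, 10137 CPM in CD8 WT at 33 weeks, 633 CPM in CD8 WT at 30 weeks and 534 CPM in P301S neg. The value of CD8 WT at 33 weeks rests on 3 cells with a median of 1391 UMIs a cell, too few to compare libraries.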
